A study of Mus musculus with 22 samples.

Results

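The 8 genes described here encode the main cytosolic heat shock chaperones of the mouse: Hspa1a, Hspa1b and Hspa8 of the Hsp70 family, their helpers Dnajb1 and Hsph1, the Hsp90 genes Hsp90aa1 and Hsp90ab1, and the small heat shock protein gene Hspb1. They were chosen by name, and all 8 are among the 13685 genes of the count table. The study profiled single cells of the mouse hippocampus by Drop-seq, a droplet method that captures the 3′ ends of polyadenylated RNA from each cell on a barcoded bead and counts molecules. The table holds 30500 cell barcodes from 22 animals, and 27198 barcodes with at least 300 counts were kept.

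All 22 animals carry the same strain label, Fvb/B6. The old animals comprised 5 WT mice of 32 to 40 weeks (4723 kept barcodes), 4 rTg4510 mice of 32 to 38 weeks (5588), 3 P301L mice of 41 to 48 weeks (3249) and 3 rTta mice of 33 weeks (4160). The young animals comprised 4 WT mice of 5 to 6 weeks (5802) and 3 rTg4510 mice of 4 to 5 weeks (3676). These ages are those of the sample labels, and the design text of the series gives a younger range for the young animals. WT mice were littermates with neither transgene. The rTg4510 line carries 2 transgenes, a tetracycline transactivator under the Camk2a promoter and a responder for human tau with the P301L mutation, so that mutant tau is driven mainly in forebrain excitatory neurons. By their names, P301L mice carry the tau responder and rTta mice the transactivator. The labels name no treatment. Each animal gave 1 library, and an animal is the replicate throughout.

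Heat shock chaperones bind unfolded or partly folded proteins and help them fold, refold or be degraded. In stressed cells the transcription factor HSF1 binds heat shock elements, inverted repeats of GAA, upstream of the inducible genes (Hspa1a, Hspa1b, Hspb1, Dnajb1, Hsph1 and Hsp90aa1), whereas Hspa8 and Hsp90ab1 are made in unstressed cells as well. Hsp70 and Hsp90 bind tau, and both have been studied for the part they play in its folding and clearance.

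Hspa1a and Hspa1b lie side by side on the minus strand of chromosome 17, at chr17:34969190-34972156 and chr17:34956436-34959238 (mm10, GENCODE annotation). Hsp90ab1 is on the same chromosome at chr17:45567775-45573271, Hspb1 at chr5:135887919-135889563, Hsph1 at chr5:149614287-149636376, Dnajb1 at chr8:83608193-83612653, Hspa8 at chr9:40800984-40810087 and Hsp90aa1 at chr12:110690605-110702728. The RefSeq promoter table (GRCm38.p6) matched 5 of the 8 genes. The 250 bases before the transcription start are printed for Hspa1a, Hspa1b, Hspb1 and Dnajb1, on which most of the results turn, 5′ to 3′ on the strand of the gene. Capitals mark GAANNTTC or TTCNNGAA, the core of a heat shock element. Both forms read the same on either strand.

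Hspa1a, chr17:34972157-34972406, minus strand: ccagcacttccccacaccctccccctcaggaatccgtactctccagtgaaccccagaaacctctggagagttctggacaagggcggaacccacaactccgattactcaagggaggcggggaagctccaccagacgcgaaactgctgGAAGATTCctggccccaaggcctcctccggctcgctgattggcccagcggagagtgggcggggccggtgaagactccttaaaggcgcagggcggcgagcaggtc

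Hspa1b, chr17:34959239-34959488, minus strand: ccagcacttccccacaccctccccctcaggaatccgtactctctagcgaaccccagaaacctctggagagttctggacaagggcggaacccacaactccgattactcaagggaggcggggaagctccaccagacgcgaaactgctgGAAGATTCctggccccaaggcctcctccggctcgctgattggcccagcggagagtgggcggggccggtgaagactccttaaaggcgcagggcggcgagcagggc

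Hspb1, chr5:135887669-135887918, plus strand: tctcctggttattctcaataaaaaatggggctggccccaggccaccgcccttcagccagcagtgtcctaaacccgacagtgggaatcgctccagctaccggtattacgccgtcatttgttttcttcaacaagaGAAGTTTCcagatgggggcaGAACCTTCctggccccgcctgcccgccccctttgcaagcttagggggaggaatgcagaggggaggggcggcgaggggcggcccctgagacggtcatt

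Dnajb1, chr8:83607925-83608174, plus strand: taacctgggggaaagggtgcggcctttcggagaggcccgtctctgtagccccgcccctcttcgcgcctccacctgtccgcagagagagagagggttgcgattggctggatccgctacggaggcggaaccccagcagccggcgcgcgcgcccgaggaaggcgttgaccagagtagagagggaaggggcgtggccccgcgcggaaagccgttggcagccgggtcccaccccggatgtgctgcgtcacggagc

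The Hspa1a and Hspa1b sequences were identical at 247 of 250 bases and differed by C44T, T47C and T249G, counted from 1 at the first printed base with the Hspa1a base first. Both held GAAGATTC starting 104 bases before the transcription start. Hspb1 held GAAGTTTC at 117 and GAACCTTC at 97 bases before its start. The Dnajb1 stretch held neither form. Hsph1, not printed, held TTCTCGAA at 33 bases before its start. Over all 32851 promoters of that length in the table, 4218 (12.8%) held at least 1 of the forms, 6.69% GAANNTTC and 7.17% TTCNNGAA, so a match in this window is a description and not a mapped site.

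Because the library reads the 3′ end, the last 500 bases of each transcript were compared with all other annotated transcripts. Hspa1a and Hspa1b shared no 50-base stretch there with each other or with any other gene, and neither did Dnajb1, Hsph1 or Hsp90aa1. Hspa8 shared 369 of 451 stretches (81.8%) with 11 other genes, mostly with Gm15459, so reads from Hspa8 could have been split among near-identical copies or dropped, and its counts are uncertain. The shares were 16% for Hspb1 (with Hsp25-ps1) and 7.76% for Hsp90ab1 (with Gm6368).

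Total counts ran from 780831 to 6039656 per animal, and the median per kept barcode from 638 to 2021. The table joins 2 sets of libraries: 270 genes were at 0 in every P301L and rTta animal while counted in each of the others, and 801 genes were at 0 in every WT and rTg4510 animal while counted in each of the others. Any contrast of P301L or rTta animals against the other groups therefore also compares these sets, and the genotype and the set cannot be told apart in it. Clustering without the chaperone genes gave 25 clusters. Marker genes named 22311 cells, among them 7124 excitatory neurons, 1310 interneurons, 2477 astrocytes, 3789 oligodendrocytes, 1543 oligodendrocyte precursors, 2880 microglia, 1974 endothelial cells and 754 mural cells (pericytes and smooth muscle), and 4887 (18.0%) stayed unnamed. Of the unnamed cells, 2837 formed a cluster with 6 of 9 astrocyte markers that was set to unnamed after it had been seen. In 3678 named cells the markers of another class had more counts than their own. The neuronal, glial and vascular classes found are those of a dissociated hippocampus, as the tissue label states.

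Old P301L replicate 3 and old rTta replicate 3 shared 176 cell barcodes, whereas no other pair of animals shared more than 2. The same class was assigned in 171 of these 176 (97.2%). Of the 8 chaperones, 5 had levels in the P301L library that were far apart between these barcodes and the rest, whereas Hsph1 was at 155 and 157 CPM. In its 176 shared barcodes Hspa8 was at 698 counts per 1000000 counts (CPM), Hspa1a at 247, Hspa1b at 32.0, Dnajb1 at 73.0 and Hspb1 at 32.0 CPM. In its other 636 barcodes Hspa8 was at 84.4, Hspa1a at 838, Hspa1b at 420, Dnajb1 at 222 and Hspb1 at 343 CPM. The shared barcodes of the rTta library had 684 CPM of Hspa8, 221 of Hspa1a, 40.2 of Hspa1b, 65.4 of Dnajb1 and 50.3 of Hspb1, and its other 1298 barcodes 637, 205, 31.1, 75.8 and 47.1 CPM. The shared barcodes of the P301L library thus had values close to those of the rTta library for these 5 genes, and far from the rest of their own. Where these barcodes come from was not tested, and the calls in comparisons with P301L or rTta mice are given with and without them.

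**Figure D1:**
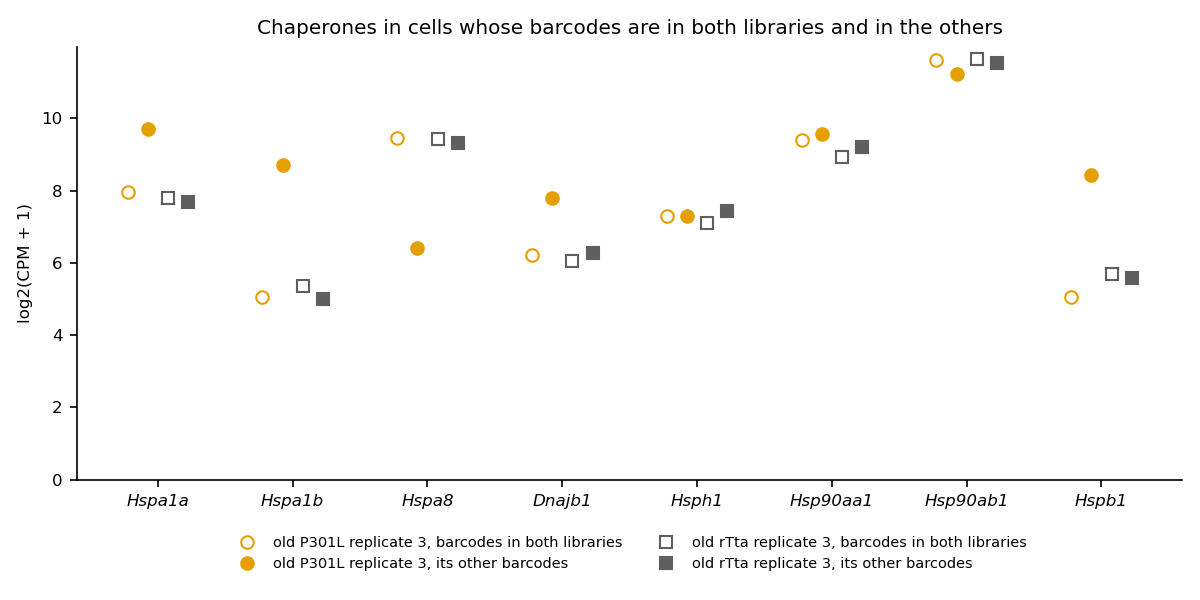
Level of each chaperone, as log2(CPM + 1), in the 176 barcodes found in both old P301L replicate 3 and old rTta replicate 3 (open symbols) and in the other barcodes of each library (filled symbols). For Hspa1a, Hspa1b, Hspa8, Dnajb1 and Hspb1 the open P301L symbol lies by the rTta symbols and away from the filled P301L symbol, as with Hspa8 at 698 against 84.4 CPM.

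The classes ranked here are those whose cell numbers are listed above. Among them the inducible Hsp70 genes were highest in cells of the vessel wall and in microglia, the resident immune cells of the brain. The values that follow are medians over animals with at least 20 cells of a class, with the lowest and highest animal. Hspa1a was at 1250 CPM (190 to 2722) in mural cells, 1115 (255 to 5306) in endothelial cells, 484 (59.6 to 2078) in microglia and 190 (34.3 to 725) in oligodendrocytes. It was at 25.2 CPM (13.9 to 73.1) in excitatory neurons, the class in which the Camk2a promoter is active, and at 9.72 (0 to 44.7) in astrocytes. Within animals, endothelial cells exceeded microglia in 22 of 22 and microglia exceeded oligodendrocytes in 19 of 22, whereas mural cells exceeded endothelial cells in 11 of 18, so the top 2 classes were not separated. Hspa1b followed with 426 CPM in endothelial cells, 286 in mural cells, 199 in microglia and 51.0 in oligodendrocytes. In the other ranked classes it was at 20.8 or less. It was at 0 in 9 of 19 animals in interneurons and in 7 of 22 in astrocytes. Fibroblasts, immature neurons and ependymal cells reached 20 cells in 4, 1 and 1 animals and were not ranked. In that 1 animal ependymal cells had 885 CPM of Hspa1a, 263 of Hspa1b, 387 of Dnajb1, 567 of Hsph1 and 2426 of Hsp90aa1. The Hspa1a and Hspa1b values were above the microglial medians.

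Dnajb1, the J-domain protein that hands substrates to Hsp70 and starts its ATP cycle, was at 157 CPM in microglia, 142 in mural cells, 128 in endothelial cells, 89.0 in oligodendrocyte precursors and 85.5 in oligodendrocytes. It was at 53.0 CPM in interneurons, 44.0 in excitatory neurons and 19.8 in astrocytes. Microglia exceeded mural cells in 9 of 18 animals, so these classes were not ordered, while excitatory neurons exceeded astrocytes in 20 of 22. Hsph1, the Hsp110 protein that exchanges the nucleotide on Hsp70, had another order. It was at 351 CPM (264 to 520) in excitatory neurons, above interneurons (232) in 18 of 19 animals, and at 79.6 in endothelial cells and 55.6 in astrocytes.

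The Hsp90 genes, whose products hold client kinases and receptors near their active fold, were counted in every class. Hsp90ab1 was at 4508 CPM (3475 to 5482) in excitatory neurons, 4210 in interneurons, 3601 in oligodendrocytes, 2286 in microglia and 1684 in astrocytes, and microglia exceeded astrocytes in 21 of 22 animals. Hsp90aa1 was at 1226 CPM in interneurons, 1194 in oligodendrocytes and 1124 in excitatory neurons, which were not ordered (interneurons above oligodendrocytes in 10 of 19 animals), and at 503 in microglia and 322 in astrocytes. Among the ranked classes Hspb1, the small heat shock protein that holds unfolded proteins and binds actin filaments, was highest in vessel cells. In fibroblasts it had a median of 270 CPM (77.9 to 672) over 4 animals. It was at 916 CPM (351 to 1961) in endothelial cells, above mural cells (444) in 17 of 18 animals, at 13.3 in microglia, 9.63 in astrocytes and 2.32 in excitatory neurons, and at 0 in 12 of 19 animals in interneurons.

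**Figure D2:**
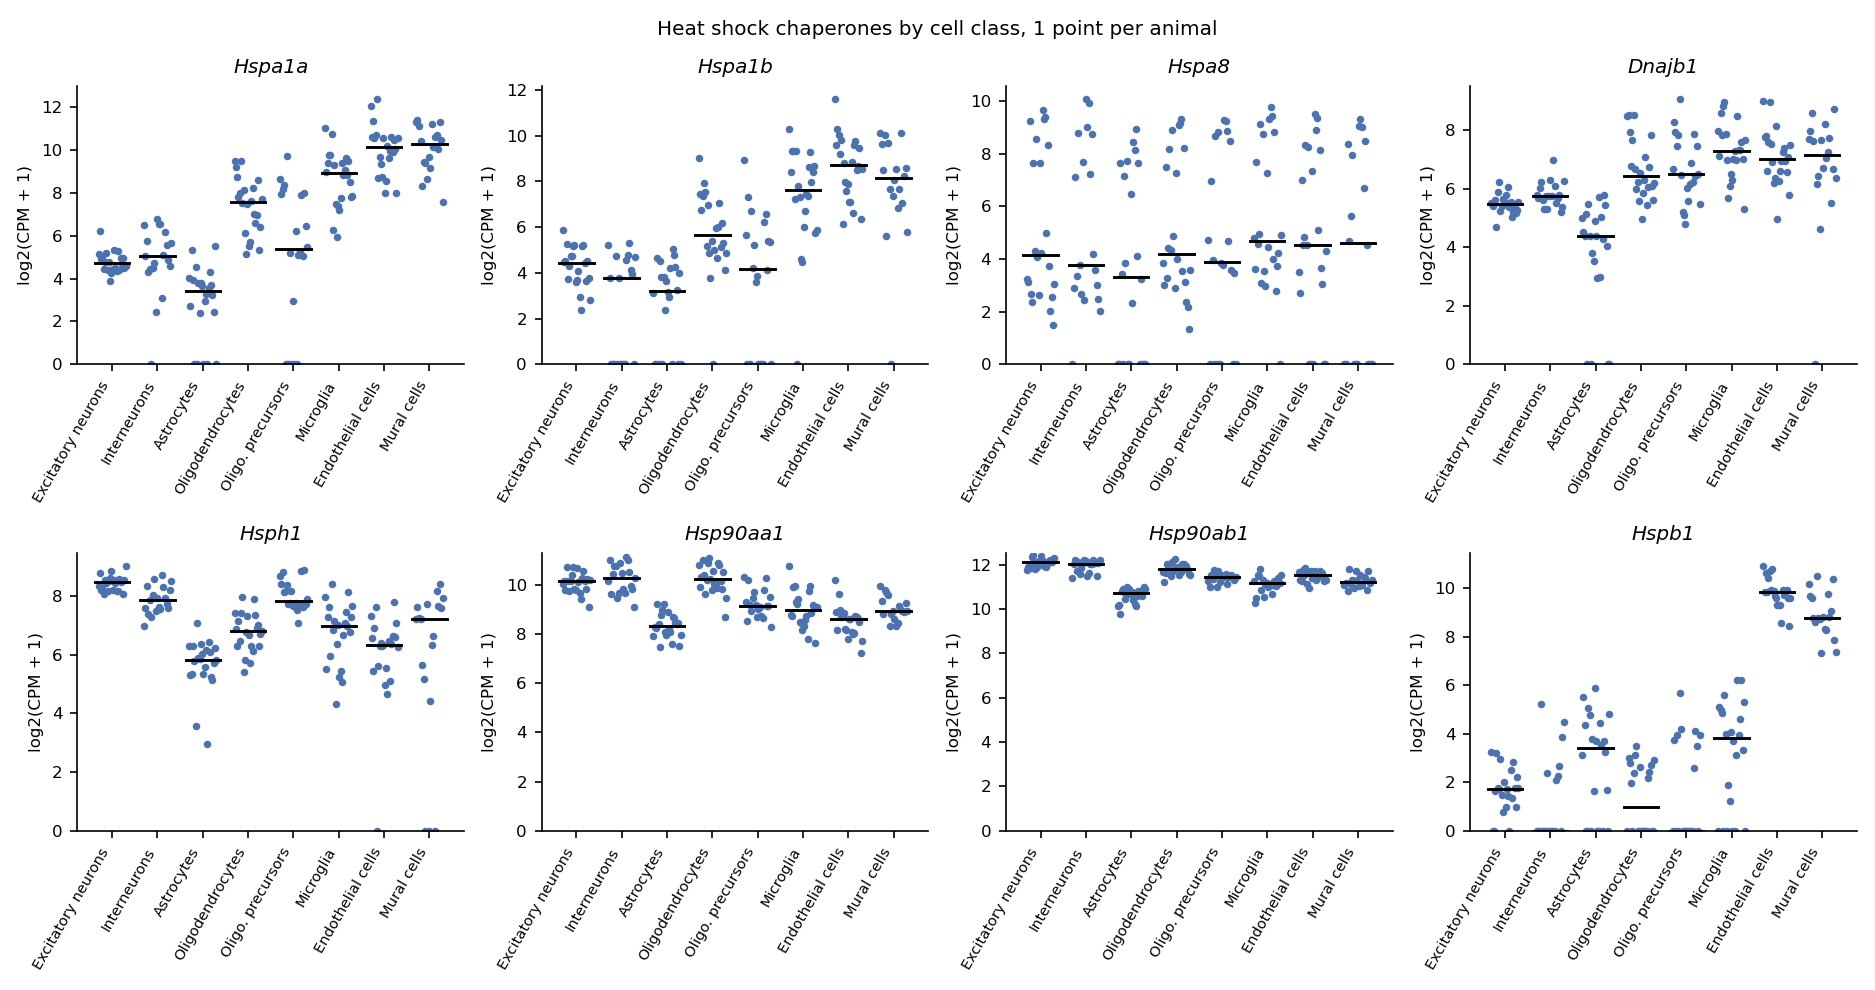
Level of each chaperone, as log2(CPM + 1) with 1 point per animal, in 8 cell classes. Lines mark the median over animals. Hspa1a, Hspa1b and Hspb1 stand highest in endothelial and mural cells, and Hspa8 has a spread over animals in every class.

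Free RNA in the droplets can put a count into a cell that does not make the gene, so the share of cells with a count was set beside that in astrocytes after each cell was thinned to 500 counts. The share of old WT microglia with a Hspa1a count was 2.90 to 44.6% over the 5 animals (7 to 63.0% before thinning). In old WT astrocytes it was 0 to 1.05% (0 to 3.57% before thinning). For Dnajb1 the shares were 4.60 to 20.9% in microglia and 0 to 2.52% in astrocytes. For both genes the lowest old WT animal in microglia was above the highest in astrocytes. Thinning left out 21 of the 408 old WT microglia and 8 of the 428 astrocytes, which had under 500 counts.

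Old rTg4510 and old WT mice were compared to ask whether chaperone RNA differs in the brain with mutant tau after months of its expression. Dnajb1 and Hspa1a fell in microglia of old rTg4510 mice. These were 2 of 54 pairs of a chaperone and a cell class, both lower, by edgeR's quasi-likelihood test with Benjamini-Hochberg adjustment over all genes tested in the class. Over all genes 0.437% of pairs were called, and 0.102% of all pairs were called lower. Of the 54 fitted log2 fold changes 45 were negative, with a median of -0.71 against -0.01 over all genes, and 17 had an unadjusted p under 0.05. Such pairs, here and in the comparisons below, share animals, and some chaperones rise and fall together over animals. They include pairs of Hspa8 and are not independent results. In comparisons of groups, counts at an unadjusted p and calls by DESeq2 are given without the share over all genes, as a description only.

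Microglial Dnajb1 was at 230, 451, 504, 232 and 126 CPM in old WT replicates 1 to 5 and at 50.8, 67.7, 89.9 and 77.8 CPM in old rTg4510 replicates 1 to 4. These rest on 41, 15, 21, 31 and 9 counts in WT and on 19, 50, 17 and 15 counts in rTg4510 animals. Every rTg4510 animal was below every WT animal. Both ranges of animal numbers in the labels (567 to 600 and 781 to 810) mix the genotypes, and the same order inside each range follows from this. The log2 fold change was -1.83 ± 0.35 (SE, 5 WT and 4 rTg4510 animals, edgeR adjusted p = 0.00077). The call stood in 17 of 17 alternatives, with a highest adjusted p of 0.0082. The share of microglia with a Dnajb1 count, thinned to 500, was 4.60 to 20.9% in WT and 2.90 to 5.02% in rTg4510 animals.

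Microglial Hspa1a was at 864, 873, 1705, 74.9 and 629 CPM in old WT mice and at 176, 59.6, 169 and 145 CPM in old rTg4510 mice. Old WT replicate 4 lay among the rTg4510 animals, so the groups overlapped, and the other 4 WT animals were above all rTg4510 animals. The log2 fold change was -2.38 ± 0.63 (edgeR adjusted p = 0.049), at the edge of the threshold. The call was lost when WT replicate 1 (adjusted p = 0.12), 2 (0.080), 3 (0.088) or 5 (0.072) was left out, or rTg4510 replicate 1 (0.11), 2 (0.13), 3 (0.067) or 4 (0.090). It was also lost with barcodes of at least 500 counts (0.057), without cells with more markers of another class (0.067) and without the cluster of lowest counts (0.091), and the fitted value lay between -2.69 and -2.01 over all 17 alternatives.

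The microglia class joined 2 clusters. The one left out in that alternative held 624 of the 2880 cells, had Mrc1, Wfdc17 and Stab1 as its leading genes, which are known from macrophages, and made up 29.4% of old WT and 22% of old rTg4510 microglia. Hspa1a had a median over animals of 215 CPM in that cluster and 519 CPM in the other.

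The other chaperones of microglia were not called. Hsp90aa1 was at 971, 993, 624, 599 and 685 CPM in old WT and at 361, 349, 286 and 316 CPM in old rTg4510 mice, which do not overlap, with a log2 fold change of -1.05 ± 0.35 (edgeR adjusted p = 0.093). Hspa1b was at 651, 150, 649, 0 and 224 CPM against 160, 23.0, 21.2 and 62.2, with overlap (-2.10 ± 0.90, adjusted p = 0.29). Hsph1 was at 196, 60.2, 336, 112 and 140 CPM against 18.7, 81.2, 127 and 36.3, also with overlap (-1.22 ± 0.45, adjusted p = 0.16). All 7 chaperones tested in microglia had negative fitted values, and in this class 0.661% of all genes were called lower.

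**Figure D3:**
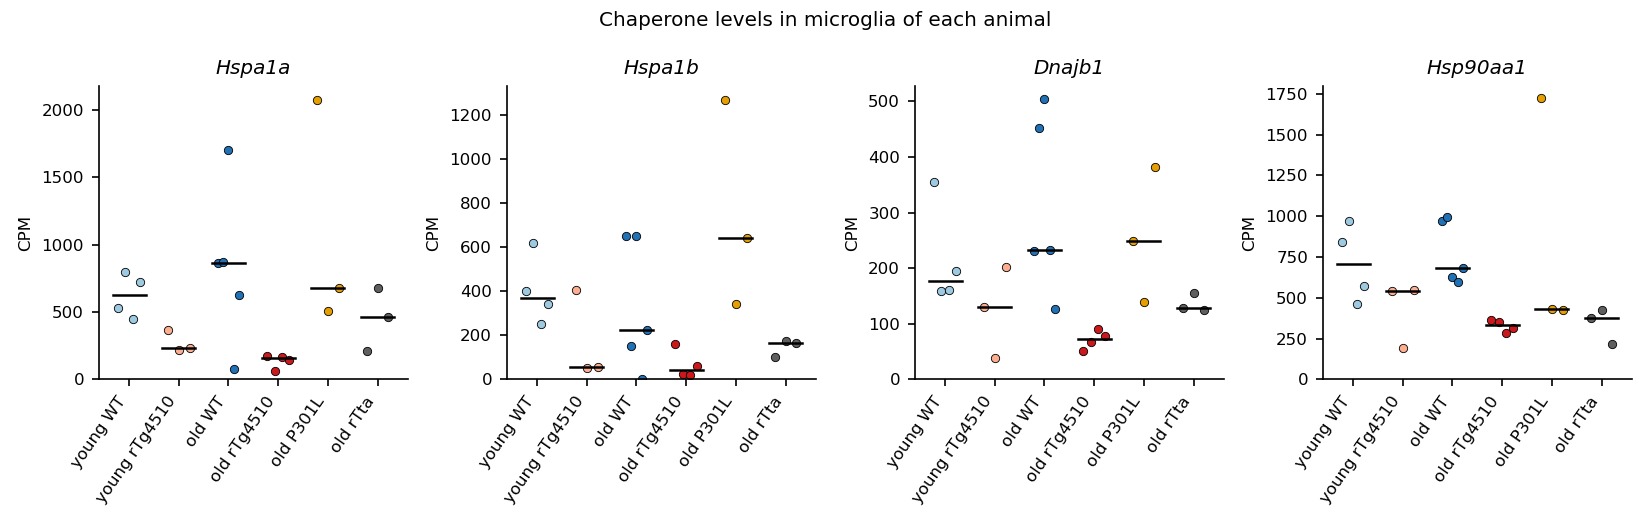
CPM of Hspa1a, Hspa1b, Dnajb1 and Hsp90aa1 in microglia of each animal, by group, with 1 point per animal and a line at the group median. For Dnajb1 and Hsp90aa1 every old rTg4510 animal lies below every old WT animal, and for Hspa1a old WT replicate 4 at 74.9 CPM lies among the old rTg4510 animals.

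Other measures of the same cells are given beside these values. Jun, an immediate early gene, ran from 2590 to 5164 CPM in old WT microglia and from 1322 to 2180 in old rTg4510 microglia. Its log2 fold change was -0.91 ± 0.30 (edgeR adjusted p = 0.092). Egr1 had -0.75 ± 0.37 (edgeR adjusted p = 0.34) and Fos -0.01 ± 0.30 (0.99). Of 126 pairs of a listed immediate early gene and a class 0 were called by edgeR, against 0.437% of all pairs. The median count per microglial cell was 828 to 1239 in WT and 1008 to 1713 in rTg4510 animals. The 7 markers of endothelial cells, which like mural cells are rich in Hspa1a, summed to 24.0 to 494 CPM in WT and 88.2 to 169 CPM in rTg4510 microglia. The 3 of them that were tested had a median log2 fold change of -1.46, and none was called. The 8 excitatory neuron markers summed to 1009 to 1896 and 457 to 1132 CPM, and 1 of the 5 tested was called lower. None of these markers was at 0 over a whole group, but single animals had few counts. In microglia of old WT replicate 3, 3 counts were 72.1 CPM, above the lowest endothelial sum of 24.0 CPM. The part of these measures in the chaperone values was not tested.

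In oligodendrocytes, the myelinating cells, Hspa1a was at 226, 251, 725, 184 and 282 CPM in old WT mice and at 69.9, 34.3, 180 and 45.3 CPM in old rTg4510 mice. The groups did not overlap, although WT replicate 4 at 184 and rTg4510 replicate 3 at 180 nearly met. The log2 fold change was -2.11 ± 0.68 (edgeR adjusted p = 0.40). Hspa1b was at 162, 244, 184, 35.2 and 125 CPM against 28.0, 12.8, 41.2 and 0, with overlap (-2.91 ± 0.74, adjusted p = 0.18), and Dnajb1 at 110, 203, 364, 102 and 62.6 CPM against 74.6, 47.1, 92.8 and 30.2, also with overlap (-1.5 ± 0.48, adjusted p = 0.38). Hsp90ab1 in the same cells was at 2903 to 4403 CPM in WT and 3385 to 4973 in rTg4510 mice, with full overlap.

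Endothelial Hspa1a and Hspb1 varied widely within groups. Hspa1a was at 1500, 1664, 5306, 417 and 810 CPM in old WT and at 660, 433, 1497 and 255 CPM in old rTg4510 mice, and Hspb1 at 916, 1387, 1700, 966 and 1762 CPM against 944, 815, 768 and 645. Both overlapped, Hspb1 through a single pair (WT replicate 1 and rTg4510 replicate 1), with -0.75 ± 0.28 for Hspb1 (edgeR adjusted p = 0.86). Endothelial Hsp90aa1 was at 776, 499, 410, 426 and 460 CPM against 293, 287, 219 and 390, with every rTg4510 animal below every WT animal (-0.86 ± 0.31, adjusted p = 0.85).

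Oligodendrocyte precursors, the dividing glia from which oligodendrocytes arise, had 2 to 24 counts of Dnajb1 per old WT or rTg4510 animal. It was at 175, 231, 535, 87.4 and 36.0 CPM in old WT replicates 1 to 5 and at 33.0, 26.7 and 63.6 CPM in old rTg4510 replicates 1, 2 and 4, the animals with at least 20 such cells (-2.32 ± 0.62, edgeR adjusted p = 0.18). The groups overlapped through WT replicate 5, with 2 counts. In mural cells, Hsp90aa1 was at 883, 825 and 774 CPM in old WT replicates 1, 4 and 5 and at 317, 449 and 488 CPM in old rTg4510 replicates 1, 2 and 4, which do not overlap (-1.03 ± 0.36, edgeR adjusted p = 0.27). Mural Hspb1 was at 441, 388 and 1443 CPM against 433, 425 and 163, with overlap (-1.07 ± 0.49, adjusted p = 0.40). None of these was called.

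In excitatory neurons no chaperone had an unadjusted p under 0.05. Dnajb1 there was at 47.7, 24.8, 59.1, 74.9 and 37.1 CPM in old WT and at 42.1, 49.8, 47.1 and 54.8 CPM in old rTg4510 mice, inside the WT range. The class joined clusters whose shares differed between the groups. The cluster led by Tshz2 made up 18.9% of old WT and 37.1% of old rTg4510 cells of the class. The cluster led by Snord49b made up 26.1% and 16.4%. Over animals the median Hsp90aa1 was 1418 CPM in the first and 555 in the second. No cluster was tested on its own.

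**Figure D4:**
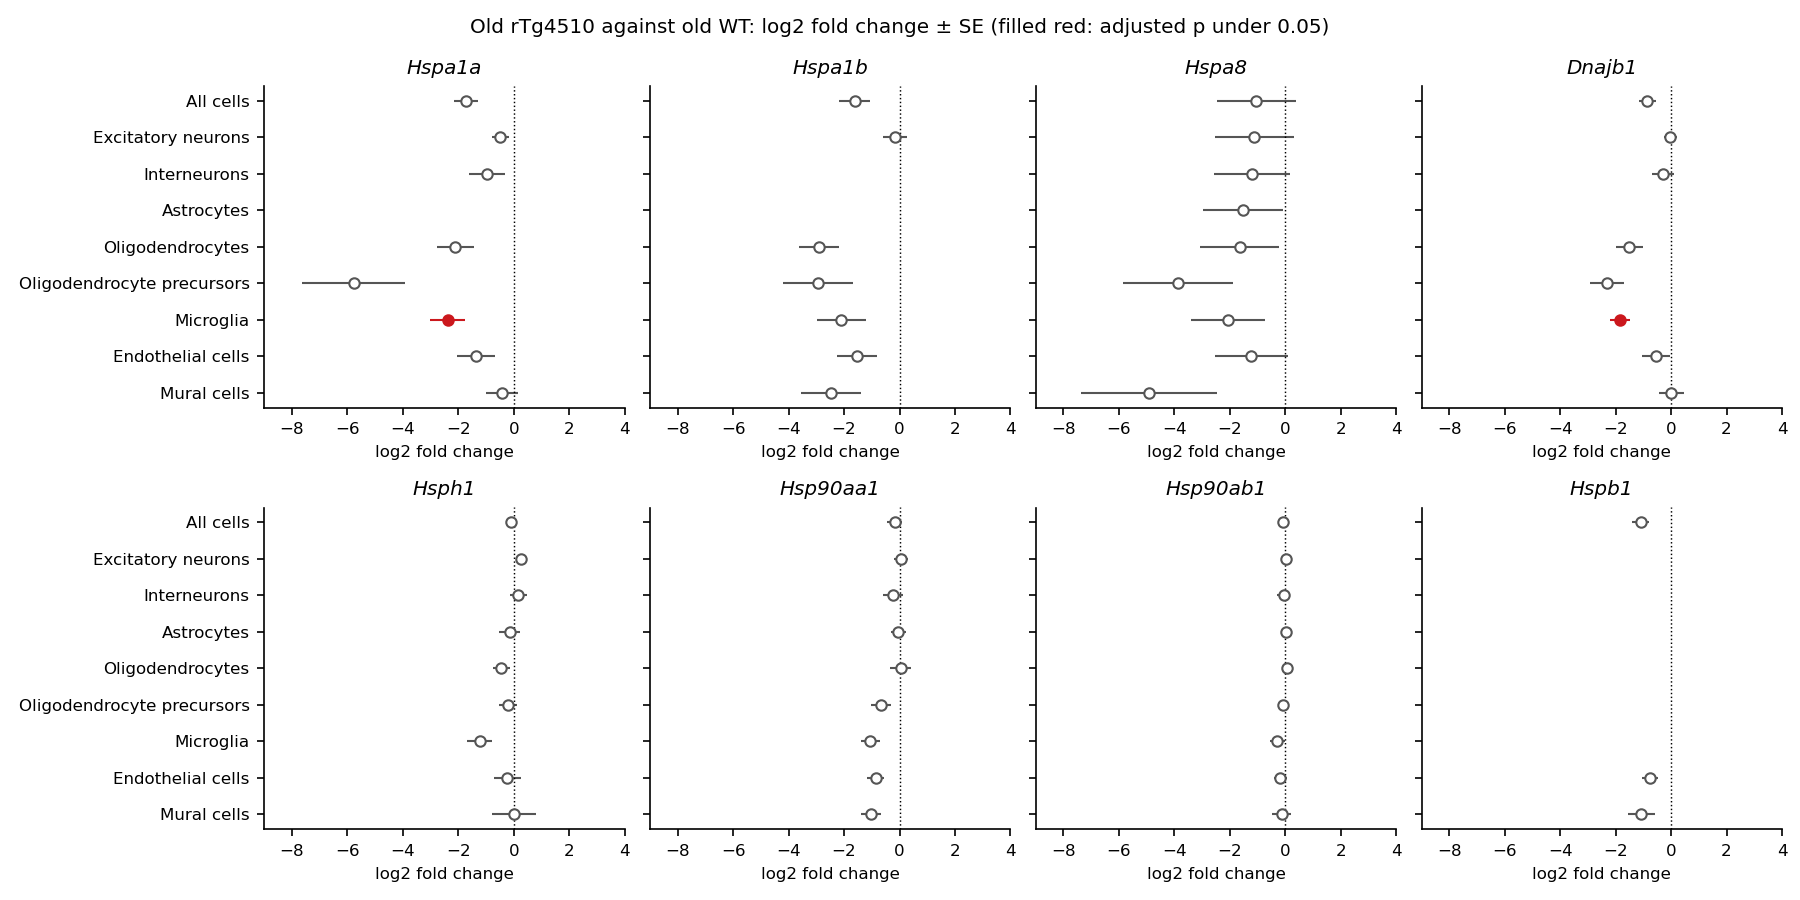
Log2 fold change with its SE, old rTg4510 against old WT, for each chaperone over all kept barcodes and in each cell class where it passed the filter on low counts. Filled red points have an edgeR adjusted p under 0.05, which only Dnajb1 and Hspa1a in microglia reached, and the widest bars belong to classes where animals were at 0.

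Whether the change in one class differed from the mean change in the others was tested directly, with the animal as a block. None of 64 chaperone and class pairs was called (0.171% of all pairs were), and the lowest edgeR adjusted p was 0.14. An unadjusted p under 0.05 was found in 13 of the 64, and in 5629 of 87336 pairs over all genes. DESeq2 was not run on this test. For microglial Dnajb1 the difference was -0.90 ± 0.42 (adjusted p = 0.46), so the fall in microglia was not shown to be larger than elsewhere.

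Summed over all kept barcodes, Hspa1a was at 251, 199, 532, 97.6 and 139 CPM in old WT and at 105, 52.7, 79.0 and 44.7 CPM in old rTg4510 mice, and Dnajb1 at 82.5, 101, 186, 91.3 and 48.8 CPM against 45.3, 48.6, 66.9 and 50.7. Both pairs of groups overlapped. In such sums, fewer cells of a class and less RNA per cell cannot be told apart. None of the 8 chaperones was called by edgeR, against 0.185% of all genes, and DESeq2 called Hspa1a and Hspb1. By edgeR all 8 fitted values were negative, that of Hspa8 with its uncertain counts included, and 4 had an unadjusted p under 0.05. Hspa1a had -1.72 ± 0.44 (edgeR adjusted p = 0.13) and Hspb1 -1.10 ± 0.30 (0.16). Hspb1 was at 65.4, 87.2, 91.8, 152 and 154 CPM in old WT and at 66.2, 53.0, 51.5 and 24.9 CPM in old rTg4510 mice, overlapping only at the first replicate of each group.

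**Figure D5:**
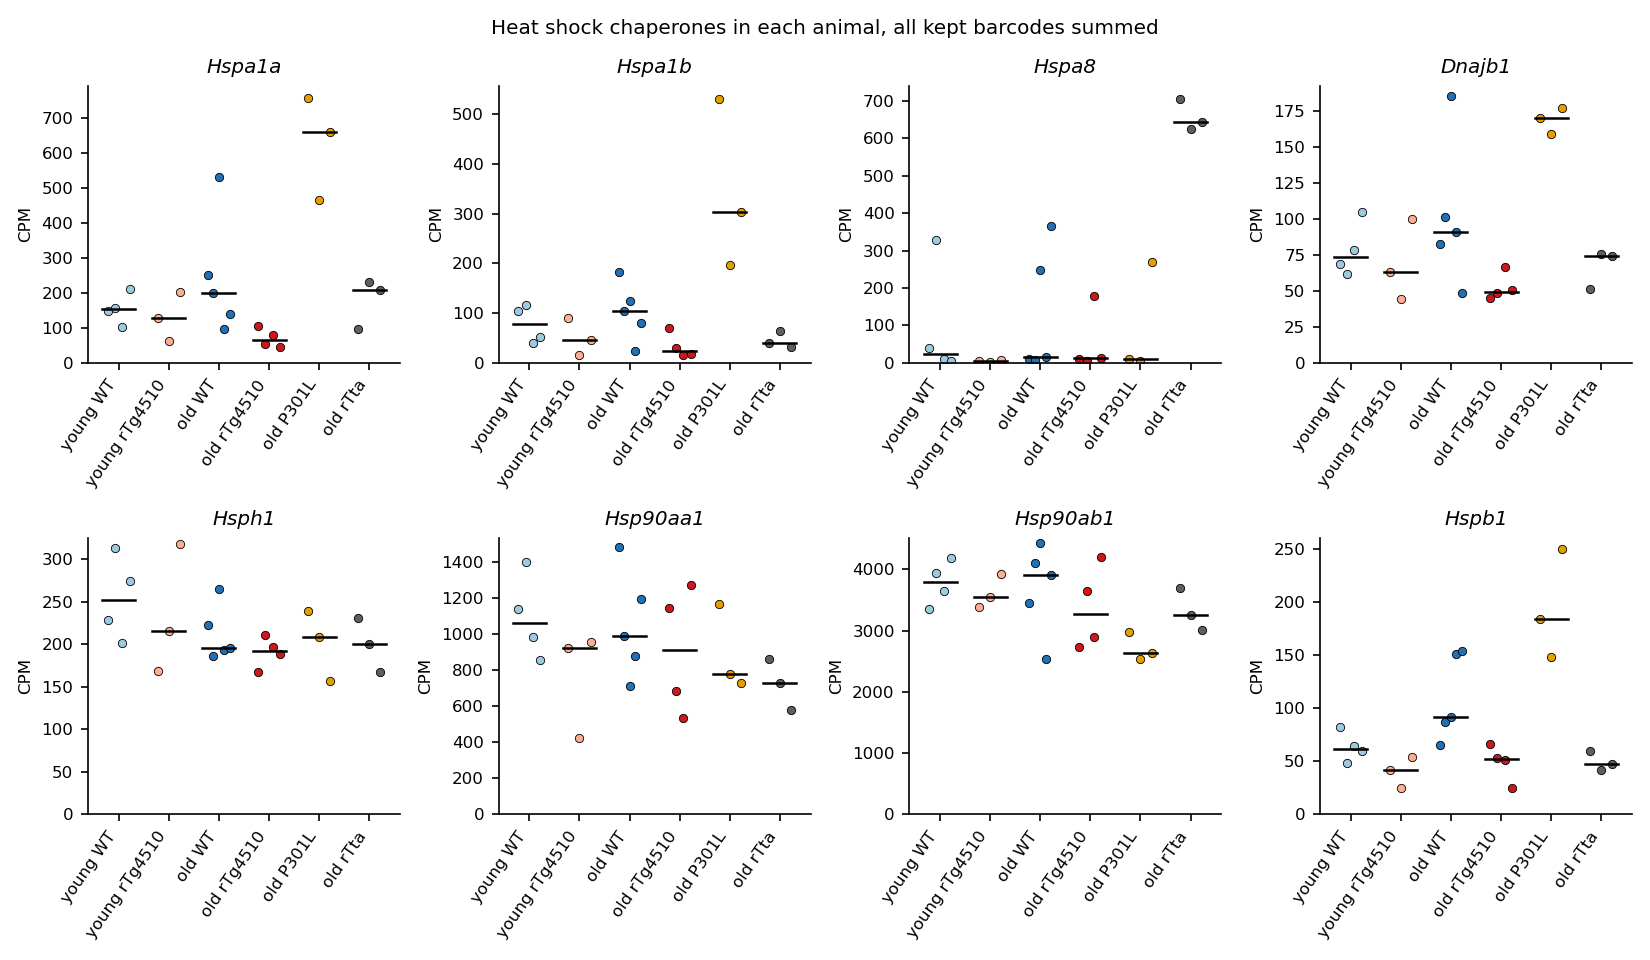
CPM of each chaperone over all kept barcodes of each animal, by group, with 1 point per animal and a line at the group median. The 3 old P301L animals are highest for Hspa1b (197 to 531 CPM), and Hspa8 is at 624 to 704 CPM in the 3 rTta animals and spread from 1.77 to 364 CPM over the others.

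Young animals were compared to ask whether the differences are present before months of tau expression. No chaperone was called in any class in young rTg4510 against young WT mice (0 of 54 by edgeR and 0 by DESeq2), where 0.0255% of all pairs were called. Of these 54 pairs 7 had an unadjusted p under 0.05 by edgeR. Of the 54 fitted values 45 were negative, with a median of -0.64. The signs and median over all genes are not given for this comparison, so these values are a description. Microglial Dnajb1 was at 355, 159, 160 and 195 CPM in young WT and at 130, 39.0 and 202 CPM in young rTg4510 mice, with overlap through the third rTg4510 animal (-0.95 ± 0.44, edgeR adjusted p = 0.38). Microglial Hspa1a was at 533, 797, 451 and 720 CPM against 363, 221 and 231, which do not overlap and were not called. Jun in these cells ran from 3125 to 5539 CPM in young WT and from 1156 to 2691 in young rTg4510 mice. Its log2 fold change was -1.25 ± 0.35 (edgeR adjusted p = 0.19). Egr1 had -1.49 ± 0.43 (edgeR adjusted p = 0.19) and Fos -0.96 ± 0.35 (0.28) in the same cells. In the sums over all kept barcodes 0 of 8 chaperones were called by edgeR or DESeq2 (0% of all genes by edgeR), and 0 had an unadjusted p under 0.05 by edgeR.

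The change with genotype was not shown to differ between the ages. In the test of that difference 0 of 54 pairs were called by edgeR and 0 by DESeq2 (0.0179% of all pairs by edgeR), and 1 had an unadjusted p under 0.05. Old against young WT mice gave 0 of 54 calls by either tool (0.421% of all pairs by edgeR) and 2 with an unadjusted p under 0.05, and old against young rTg4510 mice 0 of 54 calls by either tool (0.447%) and none with an unadjusted p under 0.05. Hspb1 over all kept barcodes was at 82.0, 48.4, 64.8 and 59.4 CPM in young WT mice and at 65.4 to 154 CPM in old WT mice, with overlap through the first young animal (+0.82 ± 0.29 for old against young, edgeR adjusted p = 0.78).

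Hspa1a, Hspa1b, Hspb1 and Dnajb1 were lower in rTg4510 than in P301L mice over all kept barcodes, and 4 chaperones were lower in microglia and 2 in oligodendrocytes. The comparison of rTg4510 with P301L mice uses the same rTg4510 animals as that with WT mice, so the 2 are set side by side and neither supports the other. Over classes 6 of 48 pairs were lower in rTg4510 mice and none higher, where 1.41% of all pairs were called and 0.843% called lower, and 24 had an unadjusted p under 0.05. In the sums over all kept barcodes 4 of 8 were lower, where 1.35% of all genes were called and 1.06% called lower. The P301L mice were 41 to 48 weeks old and the rTg4510 mice 32 to 38, and the libraries belong to the 2 sets described above, so genotype, age and set cannot be told apart.

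Over all kept barcodes Hspa1a was at 756, 466 and 660 CPM in P301L mice, above all 4 rTg4510 animals (44.7 to 105), with a log2 fold change of -3.03 ± 0.49 for rTg4510 (edgeR adjusted p = 0.016). Hspa1b was at 531, 197 and 303 CPM in P301L mice against 69.3, 30.8, 14.8 and 18.0 CPM in rTg4510 mice (-3.30 ± 0.63, adjusted p = 0.020). Dnajb1 was at 171, 159 and 177 CPM (-1.54 ± 0.34, adjusted p = 0.027), and Hspb1 at 184, 149 and 250 CPM (-1.87 ± 0.33, adjusted p = 0.016). For these 4 genes no P301L animal overlapped the rTg4510 animals. The share of all genes without overlap is not given, here or in the other comparisons, so non-overlap describes single genes only. Without the shared barcodes all 4 stayed called, at -3.18 for Hspa1a (adjusted p = 0.011), -3.47 for Hspa1b (0.013), -1.67 for Dnajb1 (0.020) and -2.09 for Hspb1 (0.013).

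Each of these 4 calls was lost under some settings. With only the 2 groups in the fit the adjusted p was 0.054 for Hspa1a and 0.072 for each of Hspa1b, Dnajb1 and Hspb1. Leaving out P301L replicate 3 gave 0.052 for Hspa1a, 0.072 for Hspa1b, 0.11 for Dnajb1 and 0.074 for Hspb1. Dnajb1 was also lost without P301L replicate 1 (0.062) or 2 (0.081) and without rTg4510 replicate 2 (0.060) or 4 (0.076), and Hspa1b without P301L replicate 1 (0.062) and without rTg4510 replicate 3 (0.059) or 4 (0.067). Endothelial cells, the class richest in Hspb1, numbered 116 to 200 of 812 to 1355 kept barcodes in P301L animals, 47 to 108 of 1097 to 1599 in old rTg4510 animals and 22 to 102 of 499 to 1593 in old WT animals.

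In microglia 4 chaperones were lower in rTg4510 than in P301L mice, where 4.24% of the genes tested in that class were called lower. Dnajb1 was at 250, 140 and 382 CPM in P301L mice against 50.8 to 89.9 in rTg4510 mice (-1.78 ± 0.38, edgeR adjusted p = 0.0032), with no overlap and with the call in 14 of 14 alternatives. Hspa1a was at 2078, 508 and 682 CPM against 59.6 to 176 (-2.95 ± 0.67, adjusted p = 0.013), and was lost without P301L replicate 1 (-2.02, 0.14). Hspa1b was at 1266, 341 and 641 CPM against 21.2 to 160 (-3.34 ± 0.93, adjusted p = 0.040). It was lost without P301L replicate 1 (0.23), 2 (0.065) or 3 (0.069), without rTg4510 replicate 2 (0.11), 3 (0.10) or 4 (0.071) and with no filter on low counts (0.11). Hsp90aa1 was at 1721, 430 and 424 CPM against 286 to 361 (-1.31 ± 0.38, adjusted p = 0.026). P301L replicate 1 stood far above the other 2 animals, and without it the value was -0.26 (adjusted p = 0.82). The Hsp90aa1 call was also lost without rTg4510 replicate 2 (0.062), 3 (0.082) or 4 (0.059) and with only the 2 groups fitted (0.054).

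P301L microglia differed from rTg4510 microglia in other measures as well. The median count per cell was 606 to 680 in P301L animals and 1008 to 1713 in rTg4510 animals. The 6 general neuron markers summed to 452 to 847 CPM in P301L and 1336 to 8506 CPM in rTg4510 microglia, and 5 of 6 were called higher in rTg4510. Their part in the chaperone difference was not tested.

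In oligodendrocytes 2 chaperones were lower in rTg4510 than in P301L mice, where 0.29% of the genes tested in that class were called lower. Hspa1b was at 526, 174 and 107 CPM in P301L mice against 28.0, 12.8, 41.2 and 0 (-3.79 ± 0.74, edgeR adjusted p = 0.031), and Dnajb1 at 361, 369 and 243 CPM against 74.6, 47.1, 92.8 and 30.2 (-2.44 ± 0.50, adjusted p = 0.031). Neither overlapped. The Dnajb1 call was lost without P301L replicate 1 (0.17), 2 (0.14) or 3 (0.076), without rTg4510 replicate 2 (0.062), 3 (0.054) or 4 (0.073) and with no filter on low counts (0.067). The Hspa1b call was lost without P301L replicate 1 (0.18), 2 (0.083) or 3 (0.061), without rTg4510 replicate 2 (0.065), 3 (0.067) or 4 (0.071) and with only the 2 groups fitted (0.11). Without the shared barcodes 7 of 48 pairs were called, Hspa1a in excitatory neurons being the added one (-1.44, edgeR adjusted p = 0.035). The values without them were -2.48 for Dnajb1 (0.032) and -3.84 for Hspa1b (0.032) in oligodendrocytes. In microglia they were -1.81 for Dnajb1 (0.0030), -2.98 for Hspa1a (0.011), -3.38 for Hspa1b (0.036) and -1.32 for Hsp90aa1 (0.018).

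P301L and rTta mice belong to the same set of libraries, so that comparison is within it, although the ages differ (41 to 48 and 33 weeks). Hspb1 over all kept barcodes was at 184, 149 and 250 CPM in P301L mice and at 59.6, 41.5 and 47.5 CPM in rTta mice, with no overlap. It rose by 1.99 ± 0.37 on the log2 scale (edgeR adjusted p = 0.025) and was the 1 call among the 8 chaperones, where 0.129% of all genes were called. The call was lost without P301L replicate 1 (0.064), 2 (0.051) or 3 (0.071) and without rTta replicate 1 (0.13), 2 (0.18) or 3 (0.12), and without the shared barcodes the value was 2.21 (adjusted p = 0.012). Hspa1a was at 95.6, 232 and 207 CPM in rTta mice, below the 3 P301L animals (+1.83 ± 0.53, adjusted p = 0.18), and Hspa1b at 39.2, 64.5 and 32.4 CPM, also below them (+2.93 ± 0.70, adjusted p = 0.11).

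Over classes no pair was called between P301L and rTta mice by edgeR (0 of 48, 0.245% of all pairs), 27 had an unadjusted p under 0.05, and DESeq2 called 1. Endothelial Hspb1 was at 1961, 918 and 1586 CPM in P301L and at 641, 636 and 385 CPM in rTta mice, with no overlap (+1.49 ± 0.34, edgeR adjusted p = 0.091), and without the shared barcodes it was called (+1.58, adjusted p = 0.029). Endothelial Hspa1b was at 3087, 762 and 1256 CPM against 136, 465 and 96.3, with no overlap (+3.0 ± 0.86, adjusted p = 0.31).

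Against old WT mice, which both controls share as the reference, neither single-transgene group gave a call by edgeR. P301L mice gave 0 of 48 pairs (0.913% of all pairs), 7 with an unadjusted p under 0.05, and 1 call by DESeq2. rTta mice gave 0 of 54 pairs (0.7% of all pairs), 18 with an unadjusted p under 0.05, and 1 call by DESeq2. In those sums both gave 0 of 8 by edgeR and by DESeq2 (0% and 0.201% of all genes by edgeR), with 5 and 1 at an unadjusted p under 0.05 by edgeR. P301L animals were all above old WT animals for Hspa1b (197 to 531 against 23.8 to 183 CPM), not called at +1.68 ± 0.57 (edgeR adjusted p = 0.17). Without the shared barcodes the counts of calls by edgeR stayed at 0 for P301L against WT, rTta against WT and rTg4510 against rTta mice, over classes and over all kept barcodes. rTg4510 against rTta mice gave 0 of 54 pairs by edgeR (0.907% of all pairs) and 0 by DESeq2, with 14 at an unadjusted p under 0.05, and 0 of 8 over all kept barcodes by either tool (0.346% of all genes), with 1 at an unadjusted p under 0.05.

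Hspa8, the constitutive Hsp70 whose counts are uncertain, varied widely between animals of the same group. Summed over all kept barcodes it was at 704, 624 and 643 CPM in the 3 rTta animals. These were above all 19 other animals. It was at 9.41, 8.97, 247, 14.8 and 364 CPM in old WT mice and at 10.9, 4.65, 179 and 12.9 CPM in old rTg4510 mice. In each of these groups most animals were low, and replicates 3 and 5 of old WT and 3 of old rTg4510 stood far above the others. P301L mice had 10.2, 5.31 and 269 CPM, the last falling to 84.4 without the shared barcodes, young WT mice 40.3, 329, 9.28 and 4.57 CPM, and young rTg4510 mice 5.35, 1.77 and 8.21 CPM. Several animals were high in all of their classes, whereas young WT replicate 1 ranged from 10.6 to 151 CPM over its classes. Over its classes, old WT replicate 3 ranged from 139 to 552 CPM, old WT replicate 5 from 208 to 480, old rTg4510 replicate 3 from 87.3 to 206 and young WT replicate 2 from 199 to 449. By contrast old rTg4510 replicate 2 ranged from 0 to 13.3 CPM and young rTg4510 replicate 2 from 0 to 4.56. The 3 rTta animals ranged from 343 to 1074, 279 to 870 and 468 to 966 CPM. Because its counts are uncertain, its fold changes between groups are not described singly. They do enter the counts of pairs, signs and calls and the medians of fitted values given above.

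Over the 22 animals some chaperones rose and fell together. Among the 21 pairs of the 7 chaperones without Hspa8, using log2(CPM + 1) over all kept barcodes, 7 had a Benjamini-Hochberg adjusted permutation p under 0.05 for Pearson's r. Hspa1a and Dnajb1 had r = 0.88 and Spearman's rho = 0.80, with permutation p = 1e-05 for r, the smallest that 100000 permutations can give. Without the 2 animals farthest from the median of Hspa1a r was 0.83, and within the 16 WT and rTg4510 animals and the 6 P301L and rTta animals it was 0.80 and 0.98. Hspa1a and its neighbour Hspa1b had r = 0.85 and rho = 0.82 (permutation p = 1e-05 for r), 0.77 without the 2 farthest animals, and 0.78 and 0.93 within the 2 sets.

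The other pairs held less well. Hspb1 had r = 0.67 with Hspa1a and with Hspa1b (rho = 0.49, adjusted permutation p = 0.071, and rho = 0.61, adjusted p = 0.019), but 0.47 and 0.41 within the 16 WT and rTg4510 animals, and Dnajb1 had r = 0.65 with Hspa1b and with Hspb1, but 0.37 and 0.39 there. Hsp90ab1 and Hsph1, both highest in excitatory neurons among the ranked classes, had r = 0.52 (adjusted permutation p = 0.039). Their rho was 0.45 (adjusted permutation p = 0.12). Hsp90aa1 had no pair under the threshold, its r with Hspa1a being 0.09. All animals' values come from sums over cells, so depth and the mix of classes enter every pair.

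The genes most like each chaperone over the 22 animals were ranked by r among 8237 genes, as a description. For Hspa1a the first was Arc (r = 0.81) and the third Jun (0.76), and for Hspb1 the first 2 were Klf2 (0.78) and Klf4 (0.77), all immediate early genes of the fixed list. Hspa1b had Usp24 first (0.80) with Klf6 and Jund among the first 4 (0.80 each), and Dnajb1 had Tmed9 (0.77) and Klf2 (0.73). Hsp90aa1 was most like Dnaja1 (0.89), a J-domain partner of Hsp70, with Dnajb6 also among the first 5 (0.82). Hsph1 was most like Gas7 (0.80), with Ppid, a cyclophilin partner of Hsp90, among the first 5 (0.77). Hsp90ab1 was most like Rnf168 (0.89) and Hspa8 most like Wrn (0.74).

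The other chaperone genes were followed through lists of 74 genes for cytosolic co-chaperones, small heat shock proteins, endoplasmic reticulum and mitochondrial chaperones, chaperonin subunits and HSF factors. In old rTg4510 against old WT mice 0 of 409 gene and class pairs were called by edgeR, against 0.437% of all pairs, and 0 of 409 in the young animals (0.0255%) and in the test of the difference between ages (0.0179%). Single calls were made in 3 comparisons, 1 of 409 pairs in each, where 0.421% (old against young WT), 0.7% (rTta against WT) and 0.907% (rTg4510 against rTta) of all pairs were called. Manf, a secreted endoplasmic reticulum protein, rose in oligodendrocytes of old against young WT mice (+1.06 ± 0.29, edgeR adjusted p = 0.031). Hspa5, the Hsp70 of the endoplasmic reticulum, fell in oligodendrocytes of rTta against WT mice (-1.10 ± 0.24, adjusted p = 0.0062). Against P301L mice 2 of 350 pairs were lower in rTg4510 mice, where 0.843% of all pairs were called lower. They were Dnajb5 in excitatory neurons (-1.56 ± 0.31, adjusted p = 0.014) and Bag6, a holdase for membrane proteins, in microglia (-1.19 ± 0.39, adjusted p = 0.049). Bag1, a nucleotide exchange factor of Hsp70, was higher in astrocytes of rTg4510 than of rTta mice (+1.80 ± 0.38, adjusted p = 0.0033).

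Immediate early genes of the list were called in comparisons with and without chaperone calls. None of 126 pairs was called by edgeR in old rTg4510 against old WT mice, where 0.437% of all pairs were. In that comparison 2 chaperone pairs were called. Against P301L mice 4 of 114 pairs were called, where 1.41% of all pairs were. Over all kept barcodes of rTg4510 against P301L mice Arc was lower (-2.06 ± 0.41, edgeR adjusted p = 0.020), as were Klf4 (-1.33 ± 0.29, adjusted p = 0.029) and Jund (-1.15 ± 0.24, adjusted p = 0.027). In microglia Egr2 (-1.59 ± 0.38) and Jund (-1.34 ± 0.37) were lower and Nfkbia (+2.10 ± 0.44) and Ier2 (+1.2 ± 0.32) higher in rTg4510 mice. Calls also stood in comparisons in which 0 chaperones were called by edgeR, such as Arc over all kept barcodes of rTg4510 against rTta mice (-2.10 ± 0.39, edgeR adjusted p = 0.012), Npas4 in excitatory neurons of rTta against WT mice (+2.64 ± 0.51, adjusted p = 0.013) and Nfkbia over all kept barcodes of old against young rTg4510 mice (+1.48 ± 0.30, adjusted p = 0.043). Their part in the chaperone differences was not tested.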

How the data were processed

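The 8 genes and all gene lists were chosen with earlier results of these data known. The deposited table holds counts of molecules per gene and cell barcode for 22 hippocampal Drop-seq libraries, 1 per animal. Per the submitters' processing notes the authors used bcl2fastq 2.18.0.12, STAR 2.2 and the mm10 genome, and per the labels' protocols libraries were made from 3′ cDNA with a modified Nextera XT kit. The counting tool and its treatment of reads that match several genes are not given in the sources used here. Each library is 1 animal, so p-values measure the spread between animals.

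Barcodes with at least 300 counts were kept and clustered with scanpy 1.11.5 (2000 variable genes without chaperones and immediate early genes, 40 components, 15 neighbours, Leiden resolution 1.0). Clusters were named from marker genes, but some that passed the marker rule were set to unnamed after they had been seen. No doublet caller was run. Cells with more marker counts of another class were left out in an alternative. Counts were summed per animal and class, with at least 20 cells per animal, and tested with edgeR 4.0.16 (TMM, filter on low counts, robust quasi-likelihood test, 1 fit per class over the 6 groups, Benjamini-Hochberg threshold 0.05 over all genes of a class). DESeq2 1.42.0, no filter, only the groups compared, a minimum of 500 counts, mixed droplets left out, the range of animal numbers as a term, and leaving out each animal were alternatives. CPM is the summed count per 1000000 counts of that animal and class, and 3 counts were taken as the floor of detection. The named genes are the 8 chaperones, the 5 genes most like each, and listed genes that passed the threshold. In simulated counts for old rTg4510 against old WT microglia, 17.0% of genes changed by 1 on the log2 scale were recovered (3834 genes tested). Of those changed by 2, 87.5% were recovered (3926 genes tested). Unchanged genes were called 0 and 7 times. Each gene was drawn with the spread fitted for its level, so these shares need not hold for chaperones that vary more between animals. Intervals for counts would cover counting error only, and none is printed.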

Additional observations from a re-analysis of the deposited data

Results flagged for a closer look

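In 5 of the 48 groups of 4 or 5 animals examined, 1 animal stood apart from the rest by Dixon's criterion, and chance flags about 1 group in 20. Hspa8 accounted for 4 of them. Over all kept barcodes, Hspa8 was at 179 CPM in old rTg4510 replicate 3, against a group median of 11.9, and at 329 CPM in young WT replicate 2, against a median of 24.8. In microglia Hspa8 was at 153 CPM in old rTg4510 replicate 3 (median 15.7) and at 449 CPM in young WT replicate 2 (median 13.5). Hspb1 in microglia of old rTg4510 replicate 3 was at 15.9 CPM, which is 3 counts, against a median of 2.01 CPM.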

How the results depend on the processing

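Of 139 alternative counts of chaperones called, over 21 results, 115 stayed within 1.5 times the main count and 24 did not. Most of the 21 results had a main count of 0, and a count that stayed at 0 is among the 115. The fits that left out 1 animal are not among the 139. For the pairs called in the main fit, no fitted value changed sign in an alternative. Over classes, old rTg4510 against old WT gave 2 calls, and 1 with at least 500 counts, 1 without mixed droplets and 1 without the cluster of lowest counts. P301L against WT gave 0, and 1 with DESeq2 and 1 with no filter. rTta against WT gave 0, and 1 with DESeq2, 1 with no filter, 3 with only the groups compared and 2 without mixed droplets. rTg4510 against P301L gave 6, and 10 with DESeq2 and 11 with only the groups compared. rTg4510 against rTta gave 0, and 3 with no filter, 4 with only the groups compared and 1 without mixed droplets. P301L against rTta gave 0, and 1 with DESeq2, 3 with no filter, 9 with only the groups compared, 2 without mixed droplets and 1 without the shared barcodes. Over all kept barcodes, old rTg4510 against old WT gave 0, and 2 with DESeq2. rTg4510 against P301L gave 4, and 0 with only the groups compared. P301L against rTta gave 1, and 2 with DESeq2, 4 with only the groups compared and 2 with named cells only. The cause of these shifts was not tested.

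Leaving out 1 animal gave 1 to 3 calls over classes for old rTg4510 against old WT, 1 to 6 for rTg4510 against P301L, and 0 to 1 each for rTta against WT, rTg4510 against rTta and P301L against rTta. Over all kept barcodes it gave 0 to 4 for rTg4510 against P301L and 0 to 0 for P301L against rTta. The leaving out of the cluster of lowest counts, of unnamed cells and of shared barcodes was chosen after seeing the data. So was the setting of some clusters to unnamed. No paired analysis was possible because the labels number animals and give the groups no shared replicate numbers. A term for the range of animal numbers, fitted instead, gave 3 calls over classes for old rTg4510 against old WT. Leaving out animals was not run for the test of the difference between classes. Microglia of old WT replicates 2 and 3 numbered 26 and 27 cells, which limits their values.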
